A study of Mus musculus with 6 samples.

Results

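The genes that mark lymphatic endothelium were measured in cells sorted as peritoneal endothelial cells (ECs) from saline mice and PD mice. The libraries also held transcripts of other cells, as the marker genes below show. The 10 genes were Prox1, Foxc2, Tbx1, Lyve1, Pdpn, Ackr4, Thy1, Reln, Mmrn1 and Fxyd6. They were chosen by name as genes of lymphatic endothelial identity, with earlier results of these data known. Each matched 1 row of the 22183 genes in the count table. In PD mice 9 of the 10 rose, where 31.1% of all 14005 tested genes did, and 8 rose at least 2-fold, where 15.4% of all tested genes did. Thy1 was the gene that did not pass the test. The rise was led by Pdpn, Lyve1 and Reln, which were 6.22-, 5.26- and 4.87-fold higher than in saline mice.

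Lymphatic capillaries are blind-ended vessels that take up fluid, protein and immune cells from tissue and return them to the blood. In the peritoneum they are a route by which fluid leaves the cavity. Lymphatic endothelium arises mostly from veins when the transcription factor PROX1 is switched on, and it grows when the receptor VEGFR3 is activated by VEGF-C or VEGF-D.

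Mice were wild-type male C57BL/6J animals, 8 to 10 weeks old, that were injected into the peritoneal cavity every day for 6 weeks. Saline mice (n = 3) were sham-treated with saline, and PD mice (n = 3) received glucose-based dialysis fluid. CD31+ cells were isolated from the peritoneum of each mouse, in the labels by magnetic sorting and in the study's methods by flow sorting of the CD31+ CD45- fraction of digested mesentery. RNA sequencing gave 21973426 to 26374292 gene counts per mouse, and each mouse was 1 library.

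The endothelial label was checked against marker genes. Pecam1, which encodes CD31, stood at 145 ± 4.44 FPKM (the authors' level scaled to gene length and depth; SD, n = 3) in saline mice and 158 ± 5.11 FPKM in PD mice. Ptprc, which encodes the leukocyte antigen CD45, stood above it per length, at 624 ± 30.2 FPKM and 392 ± 7.73 FPKM, respectively. The libraries therefore held leukocyte transcripts beside endothelial ones in both groups. The defining lymphatic genes Prox1, Lyve1, Pdpn and the VEGFR3 gene Flt4 were detected in all 6 libraries. In such bulk samples, a different number of lymphatic cells and a different amount of RNA per lymphatic cell cannot be told apart. Neither can be told apart from RNA of other cells that transcribe some of these genes.

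Promoter sequences were held by RefSeq tables (GRCm38.p6) for 7 of the 10 genes (all but Lyve1, Thy1 and Foxc2). The 250 bases before the start are shown for Prox1, the master regulator of the lineage, and for Pdpn and Reln, which were among the 3 genes with the largest log2 fold changes. All 3 genes lie on the minus strand, and each sequence is printed 5′ to 3′ as the table gives it for its strand, from chr1:190170828-190171077 (Prox1), chr4:143299565-143299814 (Pdpn) and chr5:22344706-22344955 (Reln). Capitals mark matches on either strand to 6 motifs. The GC box was searched as GGGCGG, the core promoter TATA box as TATAAA, the SOX motif as AACAAT, the FOX motif as GTAAACA, the GATA-factor motif as AGATAA and the ETS motif as CCGGAAG.
Prox1: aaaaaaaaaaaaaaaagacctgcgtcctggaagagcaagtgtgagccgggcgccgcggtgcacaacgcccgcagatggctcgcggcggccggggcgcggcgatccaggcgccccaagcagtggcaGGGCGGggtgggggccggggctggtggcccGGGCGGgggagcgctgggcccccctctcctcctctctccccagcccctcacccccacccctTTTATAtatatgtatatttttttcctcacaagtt
Pdpn: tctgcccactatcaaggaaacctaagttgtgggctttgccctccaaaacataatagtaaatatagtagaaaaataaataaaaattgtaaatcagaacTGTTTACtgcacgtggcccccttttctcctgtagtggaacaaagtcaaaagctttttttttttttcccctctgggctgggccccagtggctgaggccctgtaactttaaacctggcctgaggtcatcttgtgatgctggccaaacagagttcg
Reln: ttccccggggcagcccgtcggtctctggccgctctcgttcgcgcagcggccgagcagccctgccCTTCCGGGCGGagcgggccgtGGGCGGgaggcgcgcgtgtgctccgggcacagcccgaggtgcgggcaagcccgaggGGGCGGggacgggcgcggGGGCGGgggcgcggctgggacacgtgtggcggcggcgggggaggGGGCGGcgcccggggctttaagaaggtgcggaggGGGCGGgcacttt
The reading direction of the Pdpn and Reln windows was checked against GENCODE transcripts. No such transcript reaches the start of the Prox1 window, so its direction and the strand of its matches could not be checked. The Prox1 stretch was 64.8% G+C and held 2 GC boxes, 125 and 95 bases before the start, with a TATA box on the reverse strand 34 bases before it. A second Prox1 window of the table, at chr1:190169516-190169765 and within the gene, was 56% G+C and held 1 GC box. The Pdpn stretch was 43.2% G+C and held a single FOX match on the reverse strand, 153 bases before the start. The Reln stretch was 80% G+C and held 6 GC boxes, from 181 to 13 bases before the start, and a reverse-strand ETS match at 186 bases that shares bases with the first GC box.

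Such letters are common. Of the 32851 mouse promoter windows of the same length, 32.7% held the GC box, 12.4% the TATA box, 9.42% the SOX motif, 3.17% the FOX motif, 9.99% the GATA motif and 6.91% the ETS motif. No motif was found in all 3 of the stretches shown. A match describes letters in the window and is not evidence of binding.

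Transcription factors of the lymphatic programme are described first, in CPM (counts scaled to library size and by TMM, the trimmed mean of M-values). Prox1 (ENSMUSG00000010175, GRCm38 chr1:190118035-190170714, minus strand) encodes the homeobox factor that sets and maintains lymphatic fate. Its level was 4.22, 3.69 and 4.68 CPM in the saline mice and 14.5, 12.8 and 13.8 CPM in the PD mice. Every PD mouse lay above every saline mouse. The log2 fold change was 1.70 ± 0.15 (SE, n = 3 per group; adjusted p = 3.1e-06 in the quasi-likelihood test of edgeR, adjusted after Benjamini and Hochberg over all tested genes).

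Foxc2 (ENSMUSG00000046714, chr8:121116171-121118895, plus strand, 1 exon) encodes a forkhead factor needed for lymphatic valves. It was the scarcest of the 10 genes, with 16, 8 and 13 counts in the saline mice and 68, 30 and 51 counts in the PD mice. These counts corresponded to 0.625, 0.369 and 0.538 CPM and to 2.5, 1.26 and 2.31 CPM. The groups did not overlap, and the second PD mouse was the lowest of its group. The log2 fold change of 1.97 ± 0.39 (SE) carried the largest error among the 10 genes, with a 95% interval of 1.10 to 2.83 (edgeR adjusted p = 0.0014).

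Tbx1 (ENSMUSG00000009097, chr16:18580979-18590671, minus strand) encodes a T-box factor that acts upstream of VEGFR3 in lymphatic growth. Tbx1 was at 1.56, 1.52 and 1.7 CPM in the saline mice, against 7.76, 7 and 5.89 CPM in the PD mice. All PD mice were above the saline mice, with a wider spread in the PD group. Tbx1 had a log2 fold change of 2.11 ± 0.20 (SE; edgeR adjusted p = 6.63e-06).

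**Figure D1:**
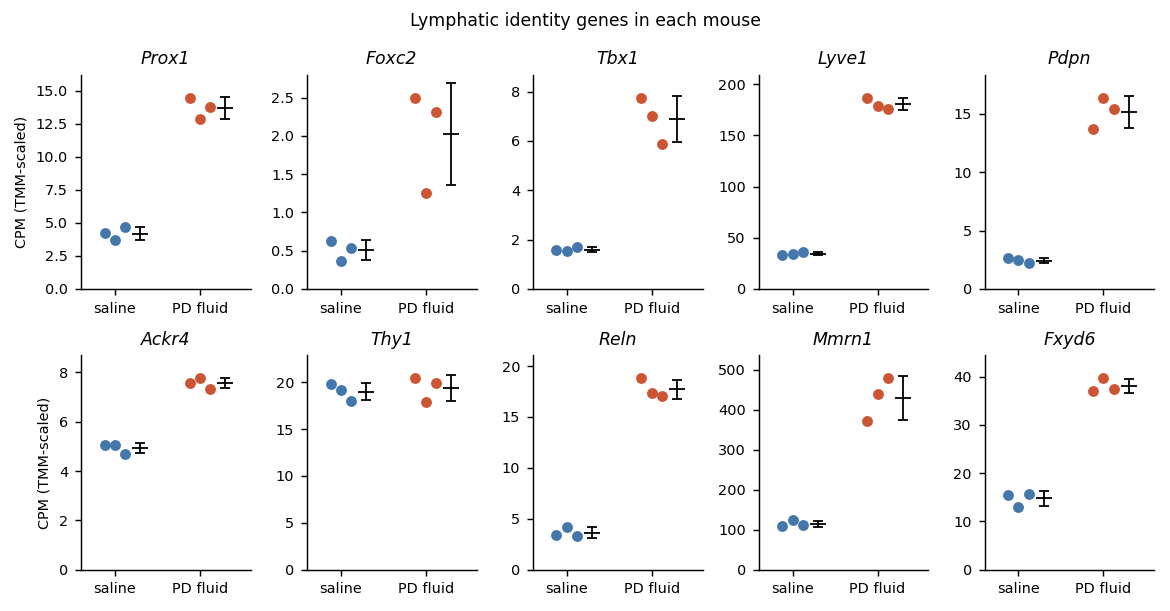
Each panel plots 1 lymphatic gene in CPM (vertical axis, from 0) for the 3 saline mice and the 3 PD mice, with the mean and SD beside the points. In every panel but that of Thy1 the points of the groups are separate, as for Prox1 with 3.69 to 4.68 CPM against 12.8 to 14.5 CPM.

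Surface proteins came next. Lyve1 (ENSMUSG00000030787, chr7:110850607-110863239, minus strand) encodes the hyaluronan receptor of lymphatic capillaries, which some tissue macrophages also carry. Its level was 33.3, 34.1 and 35.8 CPM in saline mice and 187, 179 and 176 CPM in PD mice. Lyve1 was thus tightly grouped within each treatment, and its coefficient of variation was 3.72% for saline mice against 3.16% for PD mice. The log2 fold change was 2.39 ± 0.07 (SE), and its adjusted p of 4e-10 was the smallest of the 10 genes in edgeR's test.

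Pdpn (ENSMUSG00000028583, chr4:143267431-143299564, minus strand) encodes podoplanin, a mucin-like glycoprotein of lymphatic endothelium that mesothelium, reticular fibroblasts and some macrophages also express. Saline mice had 2.65, 2.44 and 2.19 CPM of Pdpn, and PD mice had 13.7, 16.4 and 15.4 CPM. No PD mouse came near the saline range. The log2 fold change of 2.64 ± 0.15 (SE) was the largest of the 10 genes (edgeR adjusted p = 1.42e-07).

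Ackr4 (ENSMUSG00000079355, chr9:104084157-104126933, minus strand) encodes a scavenger of the chemokines CCL19 and CCL21. It was measured at 5.04, 5.07 and 4.68 CPM in saline mice and at 7.58, 7.75 and 7.34 CPM in PD mice. The groups were separate, but the difference was the smallest among the 9 genes that passed, with a log2 fold change of 0.62 ± 0.15 (SE; edgeR adjusted p = 0.00403). The Ackr4 gene shares 479 exonic bases with Acad11 on the opposite strand. Acad11 had 182 to 230 counts in saline mice and 233 to 255 counts in PD mice, and because the counting strand is not stated, reads of the shared bases cannot be told apart.

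Thy1 (ENSMUSG00000032011, chr9:44043384-44048579, plus strand) encodes the small surface glycoprotein CD90, which lymphatic endothelium shares with mouse T cells, fibroblasts and neurons. Its level was 19.8, 19.1 and 18 CPM in saline mice and 20.4, 17.9 and 19.9 CPM in PD mice. The groups overlapped. The log2 fold change was 0.03, with a 95% interval of -0.20 to 0.26 (edgeR adjusted p = 0.815), so that a change of the size seen in the other 9 genes lies outside the interval.

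Secreted proteins followed. Reln (ENSMUSG00000042453, chr5:21884454-22344702, minus strand, 67 exonic blocks) encodes reelin, an extracellular glycoprotein that lymphatic endothelium passes to the smooth muscle of collecting vessels. Saline mice had 3.4, 4.24 and 3.31 CPM of Reln, and PD mice had 18.8, 17.4 and 17 CPM. The lowest PD mouse was far above the highest saline mouse, and the log2 fold change was 2.28 ± 0.14 (SE; edgeR adjusted p = 2.68e-07).

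Mmrn1 (ENSMUSG00000054641, chr6:60924976-60989378, plus strand) encodes multimerin 1, a matrix and factor V-binding protein stored by endothelium and platelets. Its level was 109, 124 and 112 CPM in saline mice and 371, 439 and 478 CPM in PD mice. The PD mice differed among themselves more than the saline mice did, with coefficients of variation of 12.7% and 6.92%, yet the groups were separate. For Mmrn1 the log2 fold change was 1.90 ± 0.09 (SE; edgeR adjusted p = 3.81e-08).

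Fxyd6 (ENSMUSG00000066705, chr9:45370185-45396159, plus strand) encodes phosphohippolin, a regulator of the sodium pump. It stood at 15.5, 13 and 15.8 CPM in saline mice and at 37, 39.7 and 37.5 CPM in PD mice. All PD mice were higher, and the log2 fold change was 1.36 ± 0.10 (SE; edgeR adjusted p = 1.02e-06).

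The counts must be read against the whole transcriptome, which differed widely between the groups. Of the 14005 genes tested by edgeR, 31.1% were higher in PD mice and 27.8% were lower at an adjusted p under 0.05. Among the 10 lymphatic genes, 9 were higher and 0 were lower. A rise of at least 2-fold was called for 8 of the 10, beside 15.4% of all tested genes. In 9 of the 10 every PD mouse exceeded every saline mouse, which held for 34% of all tested genes. The median log2 fold change of the 10 was 1.93, whereas that of all tested genes was 0.02. Ordered from the largest log2 fold change downward, Pdpn held place 339 of 14005, Lyve1 439, Reln 491, Tbx1 574, Foxc2 665, Mmrn1 725, Prox1 925 and Fxyd6 1433, with Ackr4 at 3539 and Thy1 at 6894.

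The lymphatic genes were next compared by level, which requires the length-scaled FPKM. In saline mice Mmrn1 was the most abundant at 25.6 ± 1.58 FPKM (SD, n = 3), followed by Thy1 at 18.1 (its lowest mouse at 15.7), Lyve1 at 11.8 ± 0.498 and Fxyd6 at 8.24 ± 0.901 FPKM. Ackr4 at 2.65 FPKM and Pdpn at 1.33 FPKM lay below them. Tbx1, Prox1, Reln and Foxc2 were the least abundant, from 0.853 FPKM down to 0.187 FPKM. The ranges of neighbours in this order did not overlap.

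In PD mice Mmrn1 was again the most abundant at 96.1 ± 9.72 FPKM, with Lyve1 at 62.7 ± 3.65 FPKM in second place. Fxyd6 at 21.4 ± 0.876 FPKM and Thy1 at 17.9 ± 1.16 FPKM came next, then Pdpn at 8.45 ± 0.660 FPKM. Ackr4 at 4.17 FPKM and Tbx1 at 3.66 FPKM had overlapping ranges, and Prox1 at 2.26, Reln at 1.64 and Foxc2 at 0.746 FPKM closed the order. Thy1 thus moved from the second to the fourth place as Lyve1 and Fxyd6 passed it, and Pdpn passed Ackr4.

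**Figure D2:**
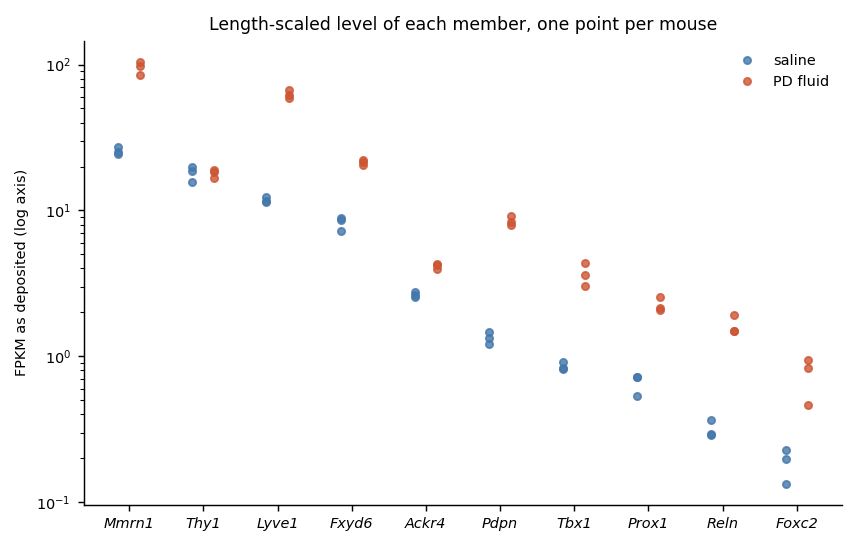
Deposited FPKM (vertical log axis) of the 10 lymphatic genes, ordered by their mean in saline mice, with 1 point per mouse. Mmrn1 stands highest in both groups, at 25.6 and 96.1 FPKM on average, while the points of Thy1 overlap between the groups.

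To see how the lymphatic genes moved among themselves, each was divided by Prox1 within each mouse. The ratio of Lyve1 to Prox1 counts was 7.65 to 9.24 in saline mice and 12.8 to 14.0 in PD mice. The ratio of Pdpn to Prox1 was 0.469 to 0.662 and 0.947 to 1.28, respectively. Reln and Tbx1 were also higher per Prox1 in every PD mouse than in any saline mouse. In contrast, the ratio of Thy1 to Prox1 was 3.85 to 5.19 in saline mice and 1.39 to 1.44 in PD mice, and that of Ackr4 was 1.00 to 1.38 and 0.523 to 0.605. Fxyd6 was likewise lower per Prox1, whereas the ranges of Mmrn1 and Foxc2 per Prox1 overlapped between the groups. The 10 transcripts therefore did not rise in one proportion. The ratios are a description without a test.

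Whether the lymphatic genes changed relative to endothelial transcripts was asked by scaling each library to the summed counts of 12 pan-endothelial marker genes. Of these 12 markers, 11 were higher in PD mice, beside 31.1% of all tested genes. Pecam1 was not called (log2 fold change 0.13, edgeR adjusted p = 0.07). The sum of the 12 markers was 1132 to 1136 CPM in saline mice and 1782 to 1867 CPM in PD mice. Under this scaling 12.4% of all tested genes were higher in PD mice and 63.4% were lower, and the median log2 fold change of all tested genes shifted to -0.66.

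Of the 10 lymphatic genes, 8 were still higher per endothelial transcript, and the median log2 fold change over all 10 was 1.26. Pdpn was higher by 1.96 (edgeR adjusted p = 2.6e-07) and Lyve1 by 1.72 (adjusted p = 2.3e-09) on the log2 scale, with Prox1 at 1.02 (adjusted p = 3.5e-05) and Fxyd6 at 0.69 (adjusted p = 6.8e-05). Ackr4 was at -0.06 (edgeR adjusted p = 0.73) and no longer called. Thy1 was now lower, at -0.65 (edgeR adjusted p = 9.5e-05). Under the same scaling, 8 of 8 macrophage, 8 of 8 mesothelial and 7 of 7 fibroblast markers (lists below) were higher. Their median log2 fold changes were 1.36, 2.89 and 2.52, and 12.4% of all tested genes were higher. All leukocyte, T cell and B cell markers were lower, beside 63.4% of all tested genes. A higher call under this scaling is therefore not particular to endothelial genes.

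Pecam1 made up 27.8% to 43.2% of the marker sum, and leukocytes and platelets also transcribe it. A scaling to the other 11 markers was therefore added after the data had been seen. It called 8.3% of all tested genes higher and 72% lower, with a median log2 fold change of -0.95 over all tested genes. The same 8 lymphatic genes were higher, with a median over the 10 of 0.97, and Thy1 was lower at -0.94 (edgeR adjusted p = 1.3e-06). Prox1 then stood at 0.74 (adjusted p = 0.00042) and Foxc2 at 1.00 (edgeR adjusted p = 0.031). The medians of the macrophage, mesothelial and fibroblast markers were then 1.07, 2.61 and 2.23.

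**Figure D3:**
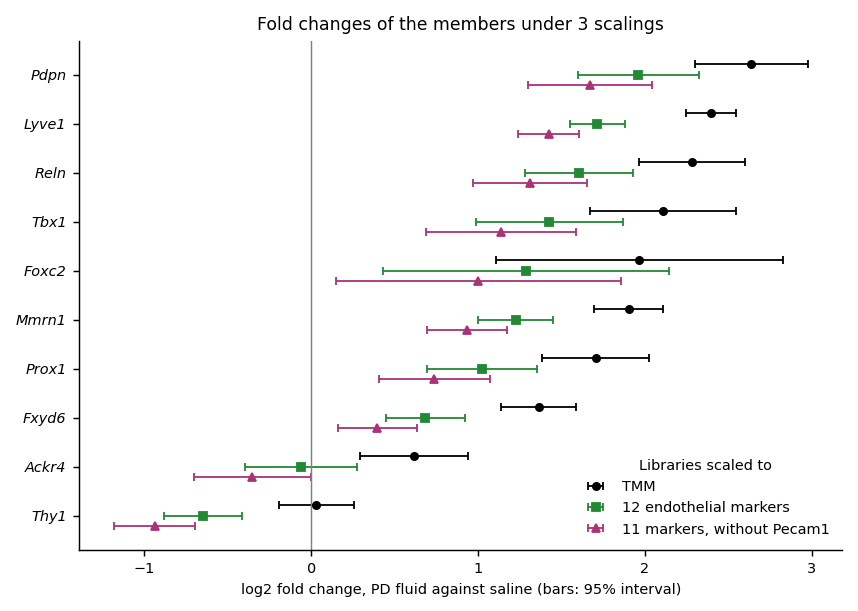
Log2 fold changes (horizontal axis, PD against saline mice) of the 10 lymphatic genes with 95% intervals, with libraries scaled by TMM, to 12 endothelial markers or to 11 markers without Pecam1. For 8 genes all intervals lie above 0, while Ackr4 falls from 0.62 to -0.06 and -0.35 and Thy1 from 0.03 to -0.65 and -0.94.

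The signalling pathway that drives lymphatic growth was examined in a list of VEGFR3 ligands, ligand-processing factors and receptors. Of its 7 genes 6 were tested and 5 were higher in PD mice, beside 31.1% of all tested genes. Flt4, which encodes VEGFR3, was at 4.29, 3.09 and 4.8 CPM in saline mice and at 20.8, 17.9 and 14.2 CPM in PD mice. The groups were separate, and its log2 fold change of 2.11 ± 0.19 (SE; edgeR adjusted p = 5.3e-06) equalled that of Tbx1. Nrp2, the co-receptor for VEGF-C, rose by 1.06 ± 0.14 on the log2 scale (SE; edgeR adjusted p = 7.4e-05).

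Of the ligands, Vegfc was at 9.52, 10.7 and 9.11 CPM in saline mice and at 13.4, 14.2 and 15.6 CPM in PD mice. The rise was one of 0.56 ± 0.13 on the log2 scale (SE; edgeR adjusted p = 0.003), and the value was -0.12 when scaled to the 12 endothelial markers (edgeR adjusted p = 0.44). Without Pecam1 among the markers Vegfc was lower, at -0.41 (edgeR adjusted p = 0.016). Vegfd was scarce, with 5 to 7 counts in saline mice and 19 to 24 counts in PD mice (log2 fold change 1.77 ± 0.43, edgeR adjusted p = 0.0046). In the scaling without Pecam1 the calls of Vegfd (0.81, edgeR adjusted p = 0.13) and Nrp2 (0.10, edgeR adjusted p = 0.49) were lost.

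Ccbe1, which helps the protease ADAMTS3 to mature VEGF-C, had 0 counts in every saline mouse and 12, 15 and 15 counts in the PD mice. Set against a floor of 3 counts per saline library it was at least 4.61-fold higher (edgeR adjusted p = 0.0008). Adamts3 itself had 3 to 9 counts in saline mice and 4 to 16 counts in PD mice, too few to be tested. The related protease gene Adamts14 did not pass (log2 fold change 0.21, edgeR adjusted p = 0.68).

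Across all 5 lists of lymphatic development and function, 36 of 37 genes were tested, of which 29 were higher in PD mice, 1 was lower and 6 were not called, beside 31.1% of all tested genes higher and 27.8% lower. The median log2 fold change was 1.06, against 0.02 for all tested genes. The 12 pan-endothelial markers had a median of 0.97, so the pathway median lay near that of endothelial markers. Of 8 transcription factors, 5 were higher and 1 was lower. Gata2, a valve factor, rose by 1.41 on the log2 scale (edgeR adjusted p = 3.1e-05). Hhex, a homeobox factor upstream of Flt4 and Prox1 that B cells and myeloid cells also express, was the gene that fell (log2 fold change -0.67, edgeR adjusted p = 1.6e-05). Other cells may also transcribe genes of these lists that rose, and the part of such cells was not tested.

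Among 10 genes of valves, junctions and matrix, 9 were higher, beside 31.1% of all tested genes. Emilin1, a matrix protein that anchors lymphatic capillaries, was at 4.49, 2.03 and 5.96 CPM in saline mice and at 22.4, 18.2 and 17.2 CPM in PD mice (4.60-fold higher, edgeR adjusted p = 6.3e-05). Its receptor subunit on valve endothelium, Itga9, rose by 1.85 on the log2 scale (edgeR adjusted p = 0.00018). Of 6 chemokines and scavenging receptors, 5 were higher, beside the same 31.1%. Ccl21a, the chemokine by which lymphatic endothelium attracts dendritic cells, was at 70.5, 76.2 and 65.9 CPM and at 415, 430 and 470 CPM (log2 fold change 2.63 ± 0.08, edgeR adjusted p = 5.3e-10). Ccl21a has near-identical copies in the mouse genome, so its counts are uncertain. Mrc1, the mannose receptor of lymphatic endothelium and macrophages, rose by 2.18 on the log2 scale (edgeR adjusted p = 2.9e-09). In the scaling without Pecam1, 4 of the 10 and 3 of the 6 were higher, beside 8.3% of all tested genes. There 1 of the 10 and 2 of the 6 were lower, beside 72% of all tested genes.

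In the last list, of the podoplanin partner and lymph growth signals, 5 of 6 genes were higher, beside 31.1% of all tested genes. Ackr3, a scavenger of adrenomedullin, rose by 1.29 (edgeR adjusted p = 3.4e-07) and Adm, which encodes adrenomedullin, by 1.25 on the log2 scale (adjusted p = 5e-06). In the scaling without Pecam1 Adm was at 0.28 and no longer called (edgeR adjusted p = 0.0588). Scaled to the 12 endothelial markers, 18 of the 36 tested pathway genes were higher and 5 were lower. Of all tested genes 12.4% were higher and 63.4% were lower under this scaling. The pathway median was 0.38, against -0.66 for all tested genes and 0.30 for the 12 endothelial markers themselves. Without Pecam1 in the scaling, 12 pathway genes were higher and 9 were lower, beside 8.3% and 72% of all tested genes. The pathway median was then 0.10, against -0.95 for all tested genes and 0.005 for the 12 endothelial markers. Of the 10 identity genes, 8 were higher under each scaling.

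**Figure D4:**
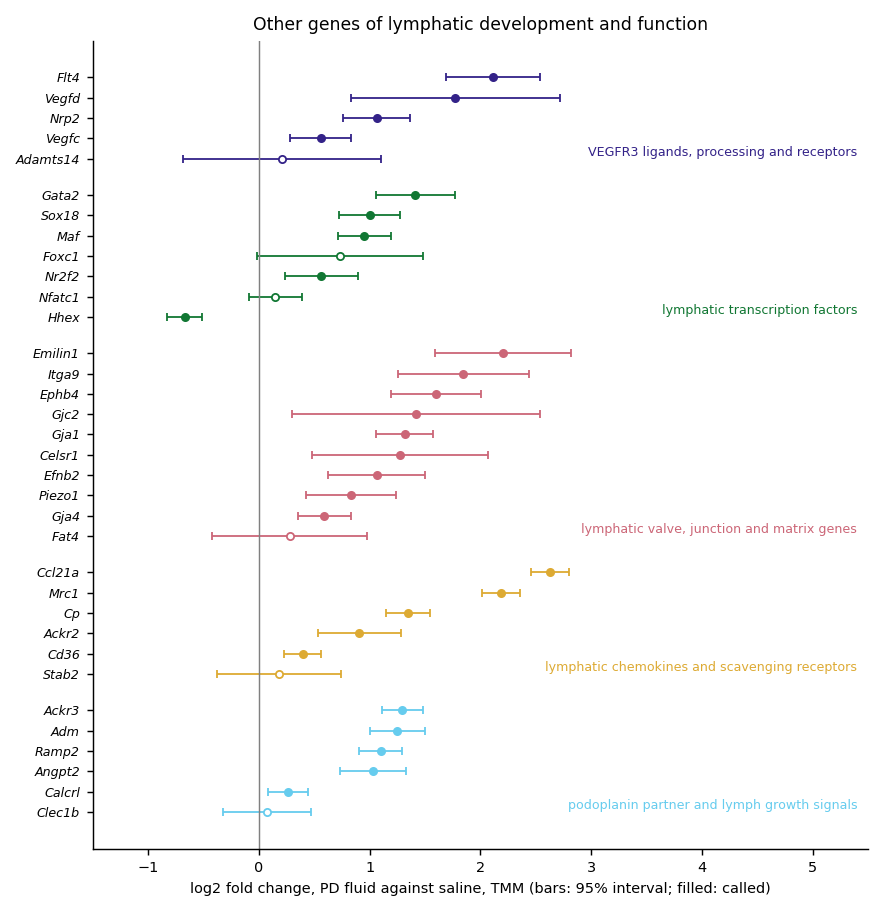
Log2 fold changes (horizontal axis, PD against saline mice, TMM) with 95% intervals for tested genes of 5 lymphatic lists, filled where the adjusted p was under 0.05. Ccbe1 is not drawn because it had 0 counts in all saline mice; Flt4, Gata2, Emilin1, Ccl21a and Ackr3 lead the drawn genes of their lists and Hhex alone is filled below 0.

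Several of the 10 genes are transcribed by other cells of the peritoneum, and marker genes of those cells moved with treatment. Beside the calls in each marker list below, 31.1% of all tested genes were higher in PD mice and 27.8% were lower. For Lyve1, 8 of 8 macrophage markers were higher in PD mice, and their summed level was 977 to 994 CPM in saline mice and 3951 to 4146 CPM in PD mice. Adgre1 and Csf1r, the genes of the macrophage antigen F4/80 and the CSF1 receptor, rose by 2.04 and 1.77 on the log2 scale. Of the 6 markers of resident macrophages that carry LYVE1, 6 were higher, with a sum of 400.2 to 415 CPM and 1217 to 1311 CPM, including Timd4 (log2 fold change 0.95) and Folr2 (1.52). None of these markers was at 0. The ratio of the mean sums was 3.10 for resident macrophages, 4.10 for macrophages and 3.65 for the 10 lymphatic genes. The part of macrophages in the Lyve1 difference was not tested.

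For Pdpn, 8 of 8 mesothelial markers were higher, with a sum of 32.6 to 38.3 CPM in saline mice and 227 to 258 CPM in PD mice. Msln and Upk3b, surface genes of mesothelium, rose by 3.92 and 3.06 on the log2 scale. Of 5 markers of fibroblastic reticular cells, which also carry podoplanin, 4 were higher, and the sum went from 21.9 to 25.2 CPM to 62.9 to 63.6 CPM. The cytokine gene Il7 rose by 1.76, whereas the chemokine gene Ccl19 stood at 0.00. All markers of both lists were detected, and their part in the Pdpn difference was not tested.

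For Thy1, the marker lists differed in opposite directions. Of 7 T cell markers 4 were lower and 0 were higher, and their sum was 2300 to 2374 CPM in saline mice and 1773 to 1967 CPM in PD mice. Within this list Cd3d was lower by a log2 fold change of -0.32, and Cd3e was at 0.06 without a call. Of 7 fibroblast markers 7 were higher, from 89.3 to 95.9 CPM to 828 to 863 CPM, with the collagen genes Col1a1 and Col1a2 up by 3.85 and 3.40 on the log2 scale. Their part in the Thy1 values was not tested.

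For Mmrn1, the platelet list was summed at 36.0 to 38.0 CPM and 97.5 to 104 CPM. Of its 5 genes 3 were tested and 1 was higher, Pf4 (log2 fold change 1.70), while Ppbp was at 0.14 (edgeR adjusted p = 0.56). For Reln and Fxyd6, which neural cells also transcribe, the 6 glial and neuronal markers summed to 6.50 to 8.35 CPM and 9.01 to 12.7 CPM, and 1 of the 5 tested was higher. S100b, a calcium-binding protein gene of glia, did not pass (log2 fold change 0.70, edgeR adjusted p = 0.41).

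For Prox1, which pancreatic cells also transcribe, the 6 acinar markers were all higher, with a sum of 1.87 to 4.33 CPM in saline mice and 3736 to 3817 CPM in PD mice. Cpa1, a digestive enzyme gene, was at 0.277 CPM or less in saline mice and at 474 to 552 CPM in PD mice, and Cela1 went from 1.13 to 2.44 CPM to 345 to 385 CPM. The 7 duct and islet markers summed to 0.230 to 0.507 CPM and 1.26 to 2.06 CPM, and 1 of the 7 could be tested. This was Sox9, a factor of duct cells, with 0 to 2 counts in saline mice and 13 to 30 counts in PD mice (log2 fold change 3.76, edgeR adjusted p = 0.001). The glucagon gene Gcg had 0 counts in saline mice and 3 to 13 counts in PD mice, while the insulin genes Ins1 and Ins2 and the islet gene Iapp had 0 counts in all 6 libraries. How much pancreatic RNA added to the Prox1 difference was not tested.

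The other marker lists also differed between the groups. Of 5 leukocyte markers 4 were lower, with Ptprc at -0.69 and Coro1a at -0.40 on the log2 scale, and Laptm5 was higher at 0.31 (edgeR adjusted p = 0.002). Their sum was 6398 to 6762 CPM in saline mice and 4997 to 5066 CPM in PD mice. Of 4 B cell markers 4 were lower, from 4985 to 5281 CPM to 2347 to 2379 CPM, including Cd79a and Cd79b at -1.21 each. Of 5 pericyte and smooth muscle markers 5 were higher, from 257 to 277 CPM to 382 to 427 CPM, with Rgs5 at 0.26 and Pdgfrb at 1.09. The endothelial cadherin gene Cdh5 rose from 16.5 to 21.9 CPM to 32.2 to 34.0 CPM. Per Cdh5 count, 8 of the lymphatic genes were higher in every PD mouse than in any saline mouse, Thy1 was lower and Ackr4 overlapped. The share of all genes that were higher per Cdh5 count was not computed.

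**Figure D5:**
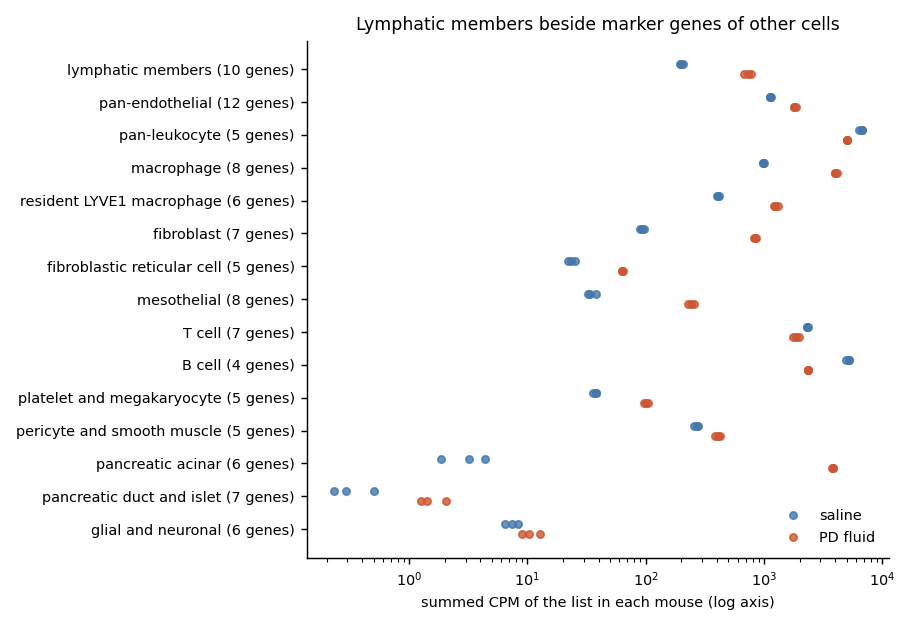
Summed CPM (horizontal log axis) of the 10 lymphatic genes and of marker lists of other cells in each mouse, with saline and PD mice in separate colours. The lymphatic sum was 195 to 207 CPM in saline mice and 680 to 774 CPM in PD mice, the macrophage, mesothelial and fibroblast sums were also higher, and the B cell, T cell and leukocyte sums were lower.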

How the data were processed

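RNA of cells sorted as peritoneal ECs from 3 saline and 3 PD mice was analysed. The source was the gene table that the authors deposited, which holds counts and FPKM per library. The submitters' processing notes name fastp 0.18.0, Bowtie2 2.2.8, HISAT2, StringTie 1.3.1 and RSEM without roles, so the counts may be rounded estimates. The genome build and counting strand are not given in the sources used here. Each of the 6 count columns was matched to its sample by name, with 0 columns unmatched. The authors' mean FPKM, fold change and p columns were not used.

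Counts were fitted with edgeR 4.0.16 in R 4.3.3 (filterByExpr, TMM, quasi-likelihood test without covariates, Benjamini-Hochberg over 14005 tested genes, threshold 0.05). The SE was derived from the test's F statistic, and no pseudocount entered the CPM. A group at 0 was set to a floor of 3 counts per library, which covers counting error only. FPKM ordered genes by level and was not tested. limma 3.58.1, DESeq2 1.42.0, other scalings, no filter, the replicate block and leaving out each mouse were alternatives. The scaling without Pecam1 was chosen after seeing the data. Replicates are separate mice, and chi-square per degree of freedom between libraries of a group was 6.46 to 17.8. The code was tested on simulated data.

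The text names all 10 members, all genes of the VEGFR3 list, the 2 tested genes with the largest absolute log2 fold change of each other pathway list, the first 2 genes of each marker list, and the 3 genes nearest in profile to Prox1 and to Lyve1. Genes of these lists that the text and figures leave out are not reported here. Hhex, Iapp, Sox9, Gcg and Laptm5 were added after their values were seen. The members and lists were chosen with earlier results of these data known. Positions come from GENCODE M21 (GRCm38), matched by identifier for 22128 of 22183 genes.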

Additional observations from a re-analysis of the deposited data

How the results depend on the processing

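Under DESeq2, limma-voom, library size without TMM, no filter on low counts and the replicate block, all 10 lymphatic genes kept their direction and their side of the threshold. The replicate block gave 9 members higher and 0 lower, 29 pathway genes higher and 1 lower, and a median member log2 fold change of 1.93. The numbers do not pair the mice, since deviations of same-numbered libraries correlated at 0.105, 0.041 and -0.173 and not every mouse correlated best with its own number. The block called 4242 genes higher and 3667 lower, against 4359 and 3887 without it.

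Scaling to the endothelial markers moved the split of all tested genes to 1732 higher and 8878 lower. It gave 1 member lower, 18 pathway genes higher and 5 lower, a median member log2 fold change of 1.26, and reversed Thy1 (-0.65) and Ackr4 (-0.062). Without Pecam1 among the markers these values were 1, 12, 9, 0.97, -0.94 and -0.35 (Ackr4 edgeR adjusted p = 0.0607). Requiring a 2-fold change left 0 pathway genes lower, and limma-voom gave a median of 1.90. The lower values follow from the reference, which itself rose.

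Leaving out 1 mouse at a time gave a median of 1.8475 to 1.9996 and kept 9 members higher each time. Thy1 ranged from -0.0101 to 0.0945, never called, and its sign turned without the third saline mouse (-0.0101) and without the first PD mouse (-0.0093). The highest adjusted p among the 9 called members was 0.0183, for Ackr4. Foxc2, with 8 to 68 counts, is limited by depth.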

Other observations

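The genes whose profile over the 6 libraries was most like that of a lymphatic gene were sought among 13892 tested genes with a mean of at least 10 counts, by the root mean square distance of gene-centred log2(CPM + 1) values. Nearest to Prox1 were Ighv7-3 (0.0507), Anxa8 (0.0516) and Dram1 (0.0575). Nearest to Lyve1 were C1s1 (0.0523), Col6a1 (0.0596) and C1qa (0.0623). C1s1 and C1qa encode complement components, Col6a1 a collagen VI chain, Anxa8 an annexin and Dram1 a lysosomal membrane protein. Ighv7-3 is an immunoglobulin variable segment of a multigene family, so its counts are uncertain. The added 1 compresses low genes: Anxa8 had a log2 fold change of 3.69 in edgeR and still lay near Prox1 (1.70) on this scale. The distances are a description without a test.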
